A study of Homo sapiens with 16 samples.

Results

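The proteasome genes are described here as all genes whose symbol is PSM followed by a letter from A to G and a number, with a value on the arrays. Of 48 such symbols in RefSeq, 42 had a value, among 19775 genes measured in all. PSMA6 and PSME2 were seen only on probe sets that match several genes, and PSMB11, PSMC5, PSMD7 and PSMD13 had no row that was used here, so these 6 were not analysed here. Each gene was read from 1 probe set, the one with the highest mean over the 16 arrays. RNA was measured on Affymetrix U133 Plus 2.0 arrays, 1 per culture, in 4 groups of 4 arrays. MDA-MB-231, a breast cancer line, received 50 mM 2-deoxy-glucose (2DG) or water as vehicle for 24 h, and so did MCF10A, an immortalized, non-tumorigenic mammary epithelial line. All cells grew at low confluence in DMEM/F12 with 17.5 mM glucose, glutamine and antibiotics. The MDA-MB-231 medium held fetal bovine serum, and the MCF10A medium held hydrocortisone, cholera toxin, insulin, hEGF and horse serum, so line and medium cannot be told apart. The replicates, lettered A to D, are described by the submitters as independent and biological.

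The proteasome is the large protease that degrades proteins tagged with ubiquitin. Its core particle is a barrel of alpha rings, which form the gate, and beta rings, of which PSMB5, PSMB6 and PSMB7 carry the constitutive active sites. PSMB8, PSMB9 and PSMB10 replace these in the immunoproteasome, which is induced by interferon and makes peptides for antigen presentation. The regulatory particle caps the core: its base holds a ring of ATPases (the PSMC genes) and large scaffold proteins, and its lid holds the enzyme that removes ubiquitin. Activators encoded by the PSME genes can take the place of this cap, and PSMG proteins and some PSMD proteins are chaperones of assembly that leave the finished particle. In human cells the transcription factor NFE2L1 raises many proteasome genes together when the proteasome is inhibited. 2DG is a glucose analogue that inhibits glycolysis and also disturbs N-linked glycosylation.

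The array medians were between 6.17 and 6.22 on the log2 scale in all 16 arrays. The difference of the actin 3' and 5' control probe sets, a sign of RNA integrity on the log2 scale, was 0.97 to 1.13 in MDA-MB-231 with 2DG and 0.38 to 1.09 in MDA-MB-231 on vehicle, where replicate B held the 1.09. It was 0.50 to 0.65 in MCF10A with 2DG and 0.34 to 0.49 in MCF10A on vehicle. It was thus higher on average with 2DG in both lines, and its part in the changes below was not tested beyond a fit that holds it as a covariate. Of the epithelial markers, CDH1 averaged 5.31 in MDA-MB-231 with 2DG, 4.62 in MDA-MB-231 on vehicle, 13.5 in MCF10A with 2DG and 13.1 in MCF10A on vehicle. The mesenchymal factor ZEB1 averaged 11.4, 11.3, 7.61 and 7.75 in these groups in the same order, while SPARC, CDH2 and MMP2, also mesenchymal markers, were lower in MDA-MB-231 than in MCF10A. The leukocyte marker PTPRC averaged 3.75 to 4.17 over the groups, near the low end of the values of 2.38 to 15.15 on the arrays. Other leukocyte markers read higher: CD3E averaged 6.27 to 6.47 and ITGAM 6.08 to 6.20 over the groups. CD14 averaged 5.67, 5.59, 8.72 and 8.10 in the order of groups used for CDH1. In whole cultures, fewer cells of a kind and less RNA per cell cannot be told apart.

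With 2DG the proteasome genes were lower in both lines, more widely and by more in MCF10A. In MDA-MB-231, 28 of the 42 fell, 2 rose (PSMD2 and PSME4) and 12 did not pass the test, which was limma's moderated test, called when the p adjusted over all genes by Benjamini-Hochberg lay under 0.05. Of all genes, 50.9% were called in this comparison, 25.4% lower and 25.5% higher. The median change, as a difference of log2 values, was -0.15 over the members and 0.0275 over all genes. In MCF10A, 39 of the 42 fell and none rose, against 54.2% of all genes called, 25.2% lower and 29% higher. The median change was -0.545 over the members and 0.0225 over all genes. In MDA-MB-231, 7 of the 42 members were called lower by 0.5 or more, against 2557 of all 19775 genes, and 2 by 1 or more, against 937. In MCF10A, 24 of the 42 were called lower by 0.5 or more, against 2707 of all genes, and 4 by 1 or more, against 1149. A fall of 1 is a halving of the signal. The arrays of 2DG and vehicle did not overlap, with 2DG lower, for 26 members in MDA-MB-231 (24% of all genes) and for 40 in MCF10A (24.2% of all genes). The replicates lay close together, with a median SD over the members of 0.0386 in MDA-MB-231 with 2DG, 0.045 in MDA-MB-231 on vehicle, 0.0331 in MCF10A with 2DG and 0.0297 in MCF10A on vehicle. With the actin difference as a covariate, 27 members fell and 1 rose in MDA-MB-231, and 39 fell in MCF10A. In that fit PSMA4, PSMB7, PSMF1 and PSMD2 no longer passed in MDA-MB-231 (adjusted p = 0.0986, 0.116, 0.152 and 0.386), and PSMB10 and PSMD3 fell there, with changes of -0.157 and -0.257.

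**Figure D1:**
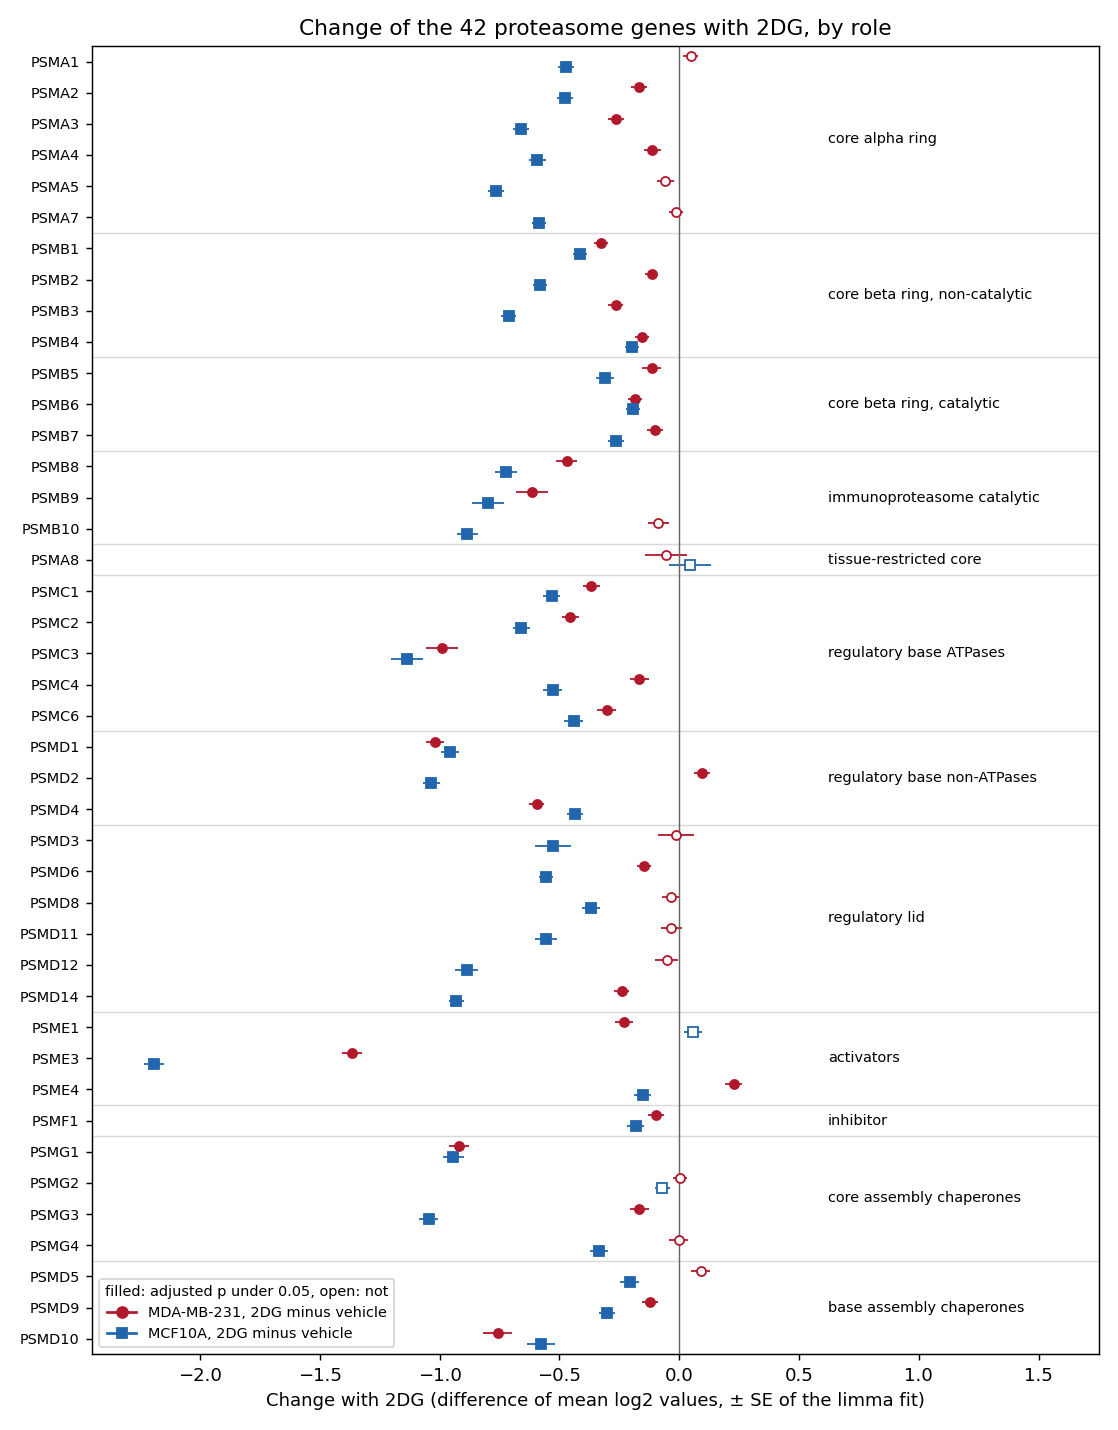
Change of each of the 42 proteasome genes with 2DG (horizontal axis, difference of mean log2 values with the SE of the limma fit), in MDA-MB-231 (red circles) and MCF10A (blue squares), grouped by role. Filled symbols passed the test: 39 MCF10A squares lie left of 0, and in MDA-MB-231 28 circles lie left and 2 right of it.

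The members with the largest called change in either line, on the probe sets used, were PSME3, PSMC3, PSMG3 and PSMD2. The 250 bases before the start site of 3 of them are shown, since these genes stand at the extremes of the response; PSMG3 was not in the promoter table. The sequences are RefSeq's on GRCh38.p14, read 5' to 3' in the direction of the gene, for PSME3 at chr17:42833147-42833396 (plus strand), PSMC3 at chr11:47426440-47426689 (minus strand) and PSMD2 at chr3:184298991-184299240 (plus strand, the upstream of 2 start sites). Capitals mark matches to the motifs searched, which are listed further on: the CCAAT box, as CCAAT or its complement ATTGG, and in PSME3 also a gamma-activated site.
PSME3: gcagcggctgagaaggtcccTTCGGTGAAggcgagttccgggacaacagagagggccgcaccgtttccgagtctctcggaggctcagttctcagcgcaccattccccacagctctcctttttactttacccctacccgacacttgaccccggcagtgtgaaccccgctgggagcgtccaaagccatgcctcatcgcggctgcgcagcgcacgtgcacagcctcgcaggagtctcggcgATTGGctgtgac
PSMC3: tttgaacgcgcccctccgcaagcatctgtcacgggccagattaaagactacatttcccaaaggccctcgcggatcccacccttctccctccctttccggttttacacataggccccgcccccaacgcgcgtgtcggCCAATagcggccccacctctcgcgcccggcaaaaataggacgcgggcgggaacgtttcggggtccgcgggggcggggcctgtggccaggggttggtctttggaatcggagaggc
PSMD2: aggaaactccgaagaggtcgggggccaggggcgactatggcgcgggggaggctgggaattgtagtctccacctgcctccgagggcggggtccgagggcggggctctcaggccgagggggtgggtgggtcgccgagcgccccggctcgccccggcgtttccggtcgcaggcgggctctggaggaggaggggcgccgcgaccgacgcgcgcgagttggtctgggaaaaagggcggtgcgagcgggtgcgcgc
The windows of PSME3 and PSMC3, which fell in both lines, each held a CCAAT box, and that of PSMD2, which fell in MCF10A and rose slightly in MDA-MB-231, held none of the motifs.

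On the probe sets used, the alpha ring of the core split between the lines. All 6 measured alpha subunits fell in MCF10A, with changes between -0.765 (PSMA5) and -0.47 (PSMA1) and a median of -0.59. In MDA-MB-231 only 3 of the 6 fell, PSMA2, PSMA3 and PSMA4, and the largest change of the 6 was -0.265, in PSMA3. PSMA5 read 12.37, 12.37, 12.33 and 12.44 in MDA-MB-231 with 2DG, against 12.42, 12.40, 12.47 and 12.45 on vehicle. In MCF10A it read 11.38, 11.46, 11.42 and 11.43 with 2DG, against 12.19, 12.15, 12.19 and 12.22 on vehicle. The MCF10A groups were far apart and the MDA-MB-231 groups overlapped. The fall of PSMA5 in MCF10A had an SE of 0.034 and an adjusted p of 5.71e-12 in limma's fit, and the change in MDA-MB-231 was -0.0575 with an adjusted p of 0.184. The difference between the 2 responses was called for all 6 alpha subunits, from 0.3075 for PSMA2 to 0.71 for PSMA5. Another probe set each of PSMA2, PSMA3 and PSMA5 gave the reverse difference, at -0.4525, -0.78 and -0.39. Their adjusted p was 8.03e-06, 0.0138 and 0.0424 in limma's fit over probe sets. That of PSMA2 (mean 9.90) changed by -0.8725 in MDA-MB-231 and -0.42 in MCF10A. The other probe sets of PSMA1 and PSMA7, and a further one of PSMA3, kept the direction. PSMA8, an alpha subunit of the testis, averaged near the bottom of the scale in every group, and its changes of -0.055 in MDA-MB-231 and 0.045 in MCF10A did not pass the test.

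The non-catalytic beta subunits PSMB1, PSMB2, PSMB3 and PSMB4 fell in both lines, 4 of 4 in each. Their changes were -0.3275 to -0.115 in MDA-MB-231 and -0.71 to -0.20 in MCF10A. PSMB1 changed by -0.33 in MDA-MB-231 and -0.415 in MCF10A, and PSMB4 by -0.155 and -0.20 in the same order. The differences of these responses, 0.0875 ± 0.041 (SE) for PSMB1 and 0.0425 ± 0.043 for PSMB4, did not pass the test (adjusted p = 0.102 and 0.479 in limma's fit), but did in some of the alternatives given further on.

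In MCF10A the 3 constitutive catalytic subunits were, with PSMB4, the 4 least changed of the 13 constitutive core subunits measured, at -0.31 to -0.19. In MDA-MB-231 their changes of -0.185 to -0.10 lay inside the range of that core, -0.3275 to 0.0475. PSMB5, which carries the chymotrypsin-like site, read 12.08, 12.10, 12.12 and 12.12 in MDA-MB-231 with 2DG, against 12.17, 12.33, 12.21 and 12.17 on vehicle. It read 12.05, 12.08, 12.08 and 12.12 in MCF10A with 2DG, against 12.38, 12.38, 12.45 and 12.36 on vehicle. Neither pair of groups overlapped. PSMB5 fell by 0.115 in MDA-MB-231 (adjusted p = 0.0204 in limma's fit) and fell by 0.31 in MCF10A (2.69e-06), and the call in MDA-MB-231 is lost without vehicle replicate B (adjusted p = 0.0631) or without 2DG replicate A (0.0527).

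PSMB6, which carries the caspase-like site, read 12.68, 12.68, 12.66 and 12.75 in MDA-MB-231 with 2DG, against 12.86, 12.88, 12.87 and 12.90 on vehicle. It read 12.09, 12.08, 12.07 and 12.06 in MCF10A with 2DG, against 12.26, 12.27, 12.25 and 12.29 on vehicle. The groups were apart in each line by nearly the same step. PSMB6 fell by 0.185 in MDA-MB-231 and fell by 0.19 in MCF10A, and the difference of the responses was 0.0075 ± 0.042 (adjusted p = 0.912 in limma's fit). PSMB7, which carries the trypsin-like site, read 13.12, 13.13, 13.13 and 13.24 in MDA-MB-231 with 2DG, against 13.25, 13.27, 13.27 and 13.24 on vehicle. It read 12.40, 12.44, 12.43 and 12.39 in MCF10A with 2DG, against 12.70, 12.64, 12.70 and 12.67 on vehicle. The MDA-MB-231 groups touched at 13.24, where 2DG replicate D stood above the other 2DG arrays, and the MCF10A groups were apart. PSMB7 fell by 0.10 in MDA-MB-231 (adjusted p = 0.0181 in limma's fit, and 0.0547 or 0.0516 without 2DG replicate A or B) and fell by 0.26 in MCF10A (3.79e-06).

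Of the 3 immunoproteasome subunits, 2 fell in MDA-MB-231 and all 3 fell in MCF10A, and in 5 of these 6 cases the size of the change exceeded that of the constitutive counterpart. PSMB8, PSMB9 and PSMB10 were dimmer, with means over the 16 arrays of 9.81, 8.28 and 9.52, beside 12.2, 12.5 and 12.9 for PSMB5, PSMB6 and PSMB7. The part of brightness in the size of the changes was not tested. PSMB8, the counterpart of PSMB5, read 9.44, 9.49, 9.50 and 9.59 in MDA-MB-231 with 2DG, against 9.99, 9.91, 10.06 and 9.94 on vehicle. It read 9.50, 9.48, 9.56 and 9.53 in MCF10A with 2DG, against 10.25, 10.22, 10.32 and 10.17 on vehicle. With 2DG the lines came to lie at about the same value, and neither pair of groups overlapped. PSMB8 fell by 0.47 ± 0.045 (SE) in MDA-MB-231 (adjusted p = 1.11e-07 in limma's fit) and fell by 0.72 ± 0.045 in MCF10A (3.81e-10).

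PSMB9, the counterpart of PSMB6, read 8.52, 8.45, 8.68 and 8.61 in MDA-MB-231 with 2DG, against 9.24, 9.26, 9.11 and 9.11 on vehicle. It read 7.13, 7.21, 7.45 and 7.33 in MCF10A with 2DG, against 8.05, 8.04, 8.06 and 8.16 on vehicle. All 4 groups were apart from one another, with MCF10A lower under both conditions. PSMB9 fell by 0.615 ± 0.068 in MDA-MB-231 (adjusted p = 6.69e-07 in limma's fit) and fell by 0.80 ± 0.068 in MCF10A (2.24e-08). The difference of these falls, 0.18 ± 0.096, did not pass the test (adjusted p = 0.141).

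PSMB10, the counterpart of PSMB7, read 9.64, 9.60, 9.60 and 9.70 in MDA-MB-231 with 2DG, against 9.65, 9.81, 9.78 and 9.65 on vehicle. It read 8.98, 8.94, 8.88 and 8.89 in MCF10A with 2DG, against 9.75, 9.84, 9.80 and 9.84 on vehicle. The MDA-MB-231 groups overlapped, and the MCF10A groups were far apart. PSMB10 changed by -0.0875 ± 0.045 in MDA-MB-231 (adjusted p = 0.12 in limma's fit) and fell by 0.885 ± 0.045 in MCF10A (2.8e-11), and the difference of 0.80 ± 0.063 passed the test (2.09e-08). It was the only one of the 3 immunoproteasome genes that did not fall in both lines. Taking each immunoproteasome gene's change minus that of its counterpart, as a description with no test, PSMB8 minus PSMB5 gave -0.355 in MDA-MB-231 and -0.41 in MCF10A. PSMB9 minus PSMB6 gave -0.43 in MDA-MB-231 and -0.605 in MCF10A. PSMB10 minus PSMB7 gave 0.015 in MDA-MB-231 and -0.62 in MCF10A.

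**Figure D2:**
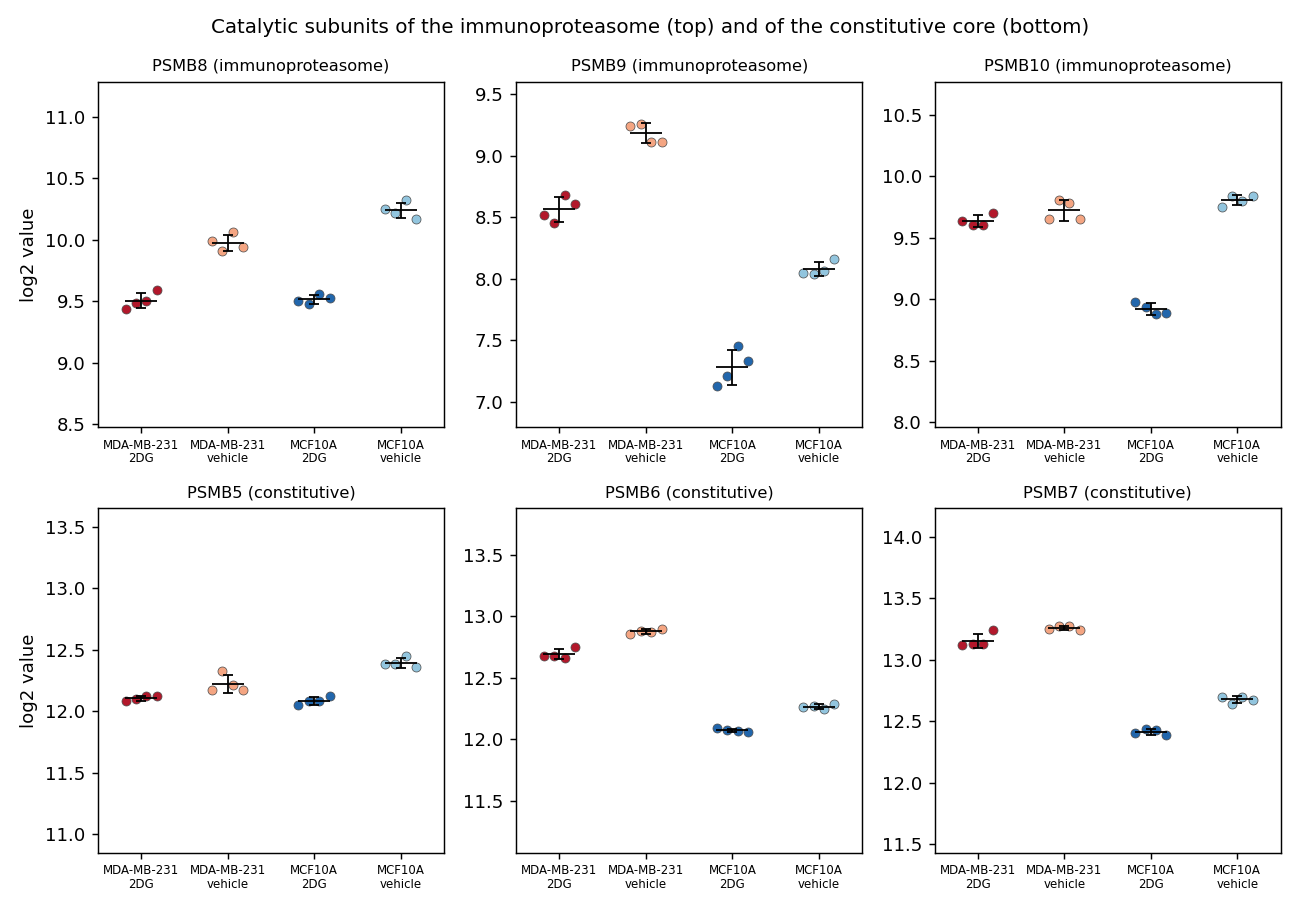
Log2 values (vertical axes, each panel spanning the same number of log2 units) of the immunoproteasome subunits in the top row and of the constitutive subunits they replace below, for the 4 arrays of each group, with the mean and the SD. PSMB8 and PSMB9 are lower with 2DG in both lines, PSMB10 in MCF10A, and no constitutive subunit falls by more than the 0.31 of PSMB5 in MCF10A.

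On the probe sets used, all 14 measured subunits of the regulatory particle with a PSM symbol fell in MCF10A. In MDA-MB-231, 9 fell, 1 rose and 4 did not pass the test. The ATPases of the base, which unfold the substrate, fell in both lines, 5 of 5 in each, with a median of -0.37 in MDA-MB-231 and -0.53 in MCF10A. PSMC3 stood apart among them on the probe sets used. It read 11.47, 11.54, 11.50 and 11.68 in MDA-MB-231 with 2DG, against 12.66, 12.33, 12.64 and 12.52 on vehicle. It read 10.86, 10.79, 10.87 and 10.68 in MCF10A with 2DG, against 11.94, 11.95, 11.96 and 11.90 on vehicle. The groups did not overlap in either line, and in MCF10A the gap between them was several times their width. PSMC3 fell by 0.99 ± 0.068 in MDA-MB-231, to 50.3% of the vehicle signal (adjusted p = 1.99e-09 in limma's fit), and fell by 1.14 ± 0.068 in MCF10A, to 45.5% (2.5e-10). The other 4 ATPases, PSMC1, PSMC2, PSMC4 and PSMC6, had changes of -0.455 to -0.17 in MDA-MB-231 and -0.66 to -0.44 in MCF10A, all called. The other 2 probe sets of PSMC2 changed by -1.595 and -1.59 in MDA-MB-231 and by -2.005 and -2.28 in MCF10A, more than PSMC3.

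The 3 non-ATPase proteins of the base with a PSM symbol behaved in 3 ways. PSMD1, a scaffold protein, read 10.73, 10.75, 10.73 and 10.81 in MDA-MB-231 with 2DG, against 11.83, 11.68, 11.82 and 11.76 on vehicle. It read 11.05, 11.04, 11.07 and 11.03 in MCF10A with 2DG, against 12.05, 11.99, 12.01 and 11.97 on vehicle. The groups were widely apart and the step was about the same in the lines. PSMD1 fell by 1.02 ± 0.038 in MDA-MB-231 (adjusted p = 1.03e-12 in limma's fit) and fell by 0.96 ± 0.038 in MCF10A (1.23e-12), and the difference of -0.06 ± 0.053 did not pass the test (adjusted p = 0.414).

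PSMD2, the other large scaffold, which docks ubiquitin shuttles, read 13.54, 13.49, 13.47 and 13.45 in MDA-MB-231 with 2DG, against 13.35, 13.43, 13.38 and 13.41 on vehicle. It read 11.70, 11.62, 11.72 and 11.65 in MCF10A with 2DG, against 12.71, 12.73, 12.66 and 12.73 on vehicle. The MDA-MB-231 groups were barely apart, with 2DG higher, and the MCF10A groups were widely apart, with 2DG lower. PSMD2 rose by 0.095 ± 0.035 in MDA-MB-231 (adjusted p = 0.0341 in limma's fit) and fell by 1.035 ± 0.035 in MCF10A, to 48.8% of vehicle (2.07e-13). The difference of 1.13 ± 0.05 was the largest between the lines' responses among the members on the probe sets used (2.17e-11). The rise in MDA-MB-231 did not pass the test without vehicle replicate A (adjusted p = 0.0989) or C (0.073) or without 2DG replicate A (0.106) or B (0.0646). It also did not pass with the actin difference as a covariate (0.386), with a replicate block (0.0603) or without probe sets shared between transcripts (0.0529).

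PSMD4, a ubiquitin receptor, read 11.89, 11.92, 11.88 and 11.96 in MDA-MB-231 with 2DG, against 12.55, 12.49, 12.51 and 12.48 on vehicle. It read 11.96, 11.96, 11.99 and 11.91 in MCF10A with 2DG, against 12.40, 12.40, 12.38 and 12.38 on vehicle. It was lower with 2DG in both lines, with no overlap. PSMD4 fell by 0.595 ± 0.032 in MDA-MB-231 (adjusted p = 8.56e-11 in limma's fit) and fell by 0.435 ± 0.032 in MCF10A (3.39e-09), and it was 1 of 2 members, with PSME1, whose response was called more negative in MDA-MB-231 (difference -0.16 ± 0.045, adjusted p = 0.00743). Its probe set that is not shared between transcripts was dim and changed by 0.17 in MDA-MB-231 and 0.105 in MCF10A, with no call (adjusted p = 0.095 and 0.307).

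In the lid, on the probe sets used, 2 of the 6 measured subunits with a PSM symbol fell in MDA-MB-231 and all 6 fell in MCF10A. SEM1, a lid subunit with another name, was called in neither line and is given further on. The changes of PSMD6 and of PSMD14, the deubiquitinating enzyme of the lid, were -0.15 and -0.24 in MDA-MB-231. Those of the 6 in MCF10A lay between -0.93 (PSMD14) and -0.37 (PSMD8). PSMD12, a structural lid subunit, read 12.31, 12.39, 12.41 and 12.40 in MDA-MB-231 with 2DG, against 12.51, 12.48, 12.42 and 12.31 on vehicle. It read 11.38, 11.34, 11.44 and 11.26 in MCF10A with 2DG, against 12.27, 12.23, 12.26 and 12.21 on vehicle. The MDA-MB-231 groups overlapped and the MCF10A groups did not. PSMD12 changed by -0.0525 ± 0.048 in MDA-MB-231 (adjusted p = 0.404 in limma's fit) and fell by 0.89 ± 0.048 in MCF10A (6.54e-11). The difference of responses was called for 6 of 6 lid subunits with a PSM symbol, from 0.3375 for PSMD8 to 0.835 for PSMD12. The second probe set of PSMD12 gave the reverse difference, at -0.275 (adjusted p = 0.0012 in limma's fit over probe sets). With the mean of all probe sets, PSMD11 and PSMD12 were called lower in MDA-MB-231, at -0.449 and -0.8725. For PSMD3 in MDA-MB-231, vehicle replicate B read 11.51 beside 11.05 to 11.11 in the other vehicle arrays. The change of PSMD3 in that line was -0.0125 with all arrays (adjusted p = 0.913 in limma's fit) and 0.0958 without replicate B (0.0276).

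On the probe sets used, PSME3 showed the deepest fall of all members in both lines. Other probe sets of PSMA5, PSMC2 and PSMD12 fell further in MDA-MB-231, and of PSMC2 and PSMD11 in MCF10A, as given further on. PSME3 encodes the activator of the nuclear proteasome, which aids degradation without ubiquitin. PSME3 read 9.74, 9.74, 9.73 and 9.83 in MDA-MB-231 with 2DG, against 11.17, 11.09, 11.18 and 11.07 on vehicle. It read 9.14, 9.13, 9.25 and 9.08 in MCF10A with 2DG, against 11.34, 11.30, 11.37 and 11.36 on vehicle. The groups lay more than a log2 unit apart in each line. PSME3 fell by 1.37 ± 0.042 in MDA-MB-231, to 38.8% of vehicle (adjusted p = 1.37e-13 in limma's fit), and fell by 2.19 ± 0.042 in MCF10A, to 21.9% of vehicle (2.14e-16), and the fall was deeper in MCF10A by 0.825 ± 0.06 (7.44e-09).

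The other activators moved little and not alike. PSME1, which forms the interferon-induced activator with PSME2, read 11.83, 11.83, 11.88 and 11.93 in MDA-MB-231 with 2DG, against 12.05, 12.10, 12.15 and 12.09 on vehicle. It read 11.54, 11.54, 11.63 and 11.56 in MCF10A with 2DG, against 11.51, 11.46, 11.50 and 11.57 on vehicle. The MDA-MB-231 groups were apart and the MCF10A groups overlapped. PSME1 fell by 0.23 ± 0.038 in MDA-MB-231 (adjusted p = 6.51e-05 in limma's fit) and changed by 0.0575 ± 0.038 in MCF10A (0.228), with a difference of -0.29 ± 0.054 (0.000275).

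PSME4, a large activator linked in mammals to the degradation of acetylated histones, read 11.21, 11.21, 11.25 and 11.29 in MDA-MB-231 with 2DG, against 11.06, 10.97, 11.01 and 11.01 on vehicle. It read 11.19, 11.09, 11.18 and 11.19 in MCF10A with 2DG, against 11.30, 11.34, 11.28 and 11.34 on vehicle. Neither pair overlapped, and the direction was opposite in the lines. PSME4 rose by 0.23 ± 0.036 in MDA-MB-231 (adjusted p = 3.69e-05 in limma's fit) and fell by 0.15 ± 0.036 in MCF10A (0.00149), but its other probe sets gave other changes, as described further on. PSMF1, an inhibitor of the core in vitro, read 10.67, 10.59, 10.72 and 10.65 in MDA-MB-231 with 2DG, against 10.74, 10.74, 10.72 and 10.82 on vehicle. It read 10.35, 10.34, 10.35 and 10.32 in MCF10A with 2DG, against 10.50, 10.53, 10.53 and 10.53 on vehicle. The MDA-MB-231 groups met at 10.72, and the MCF10A groups were apart. PSMF1 fell by 0.0975 in MDA-MB-231 (adjusted p = 0.0263 in limma's fit, and 0.0512 to 0.0985 without vehicle replicate D, 2DG replicate B or 2DG replicate D) and fell by 0.18 in MCF10A (0.000223).

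Of the 4 assembly chaperones of the core, 2 fell in MDA-MB-231 and 3 in MCF10A. PSMG1 and PSMG2 form a heterodimer that builds the alpha ring. PSMG1 read 11.07, 11.06, 11.12 and 11.08 in MDA-MB-231 with 2DG, against 11.94, 12.12, 11.97 and 11.98 on vehicle. It read 11.23, 11.13, 11.17 and 11.18 in MCF10A with 2DG, against 12.19, 12.08, 12.14 and 12.07 on vehicle. The groups were widely apart by the same step in both lines. PSMG1 fell by 0.92 ± 0.043 in MDA-MB-231 (adjusted p = 1.62e-11 in limma's fit) and fell by 0.94 ± 0.043 in MCF10A (7.86e-12), and the difference of 0.0225 ± 0.061 did not pass the test (adjusted p = 0.81). Its partner PSMG2 changed by 0.0025 ± 0.03 in MDA-MB-231 (adjusted p = 0.958) and by -0.07 ± 0.03 in MCF10A (0.0625).

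PSMG3 and PSMG4 form the second pair. PSMG3 read 10.19, 10.23, 10.12 and 10.25 in MDA-MB-231 with 2DG, against 10.34, 10.45, 10.35 and 10.32 on vehicle. It read 9.44, 9.42, 9.40 and 9.42 in MCF10A with 2DG, against 10.44, 10.48, 10.52 and 10.42 on vehicle. The 2DG arrays were lower in both lines, narrowly in MDA-MB-231 and by about 1 in MCF10A. PSMG3 fell by 0.17 ± 0.039 in MDA-MB-231 (adjusted p = 0.00169 in limma's fit) and fell by 1.045 ± 0.039 in MCF10A, to 48.5% of vehicle (6.94e-13), with a difference of 0.88 ± 0.056 (1.47e-09). PSMG4 read 10.36, 10.27, 10.27 and 10.30 in MDA-MB-231 with 2DG, against 10.26, 10.40, 10.26 and 10.29 on vehicle. It read 10.57, 10.51, 10.61 and 10.60 in MCF10A with 2DG, against 10.92, 10.93, 10.89 and 10.89 on vehicle. The MDA-MB-231 groups overlapped, and the MCF10A groups did not. PSMG4 changed by -0.0025 in MDA-MB-231 (adjusted p = 0.967 in limma's fit) and fell by 0.335 in MCF10A (1.15e-06).

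The chaperones of the base, PSMD5, PSMD9 and PSMD10, fell in MCF10A, 3 of 3, and PSMD9 and PSMD10 fell in MDA-MB-231. PSMD10, also known as gankyrin, read 11.17, 11.16, 11.12 and 11.10 in MDA-MB-231 with 2DG, against 11.93, 12.02, 11.90 and 11.73 on vehicle. It read 10.47, 10.42, 10.66 and 10.47 in MCF10A with 2DG, against 11.07, 11.08, 11.15 and 11.03 on vehicle. The groups did not overlap in either line. PSMD10 fell by 0.76 ± 0.06 in MDA-MB-231 (adjusted p = 1.16e-08 in limma's fit) and fell by 0.58 ± 0.06 in MCF10A (2.8e-07), and the difference of -0.18 ± 0.085 did not pass the test (0.0998). PSMD5 changed by 0.09 ± 0.04 in MDA-MB-231 (adjusted p = 0.072) and fell by 0.21 ± 0.04 in MCF10A (0.000249).

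**Figure D3:**
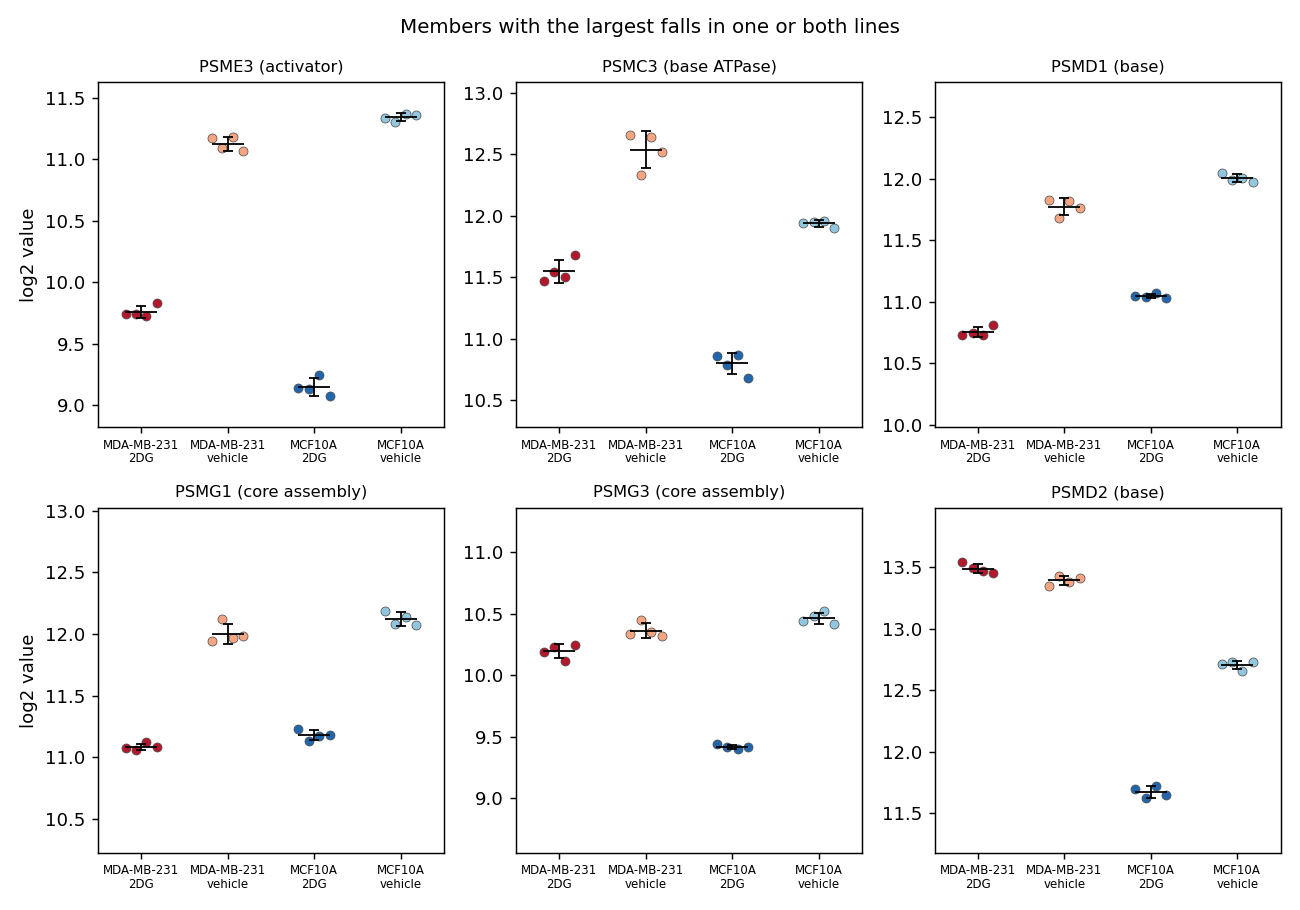
Log2 values (vertical axes, each panel spanning the same number of log2 units) of PSME3, PSMC3, PSMD1, PSMG1, PSMG3 and PSMD2 in the 4 arrays of each group, with the mean and the SD. PSME3, PSMC3, PSMD1 and PSMG1 drop by 0.9 or more with 2DG in both lines, whereas PSMG3 and PSMD2 drop by about 1 in MCF10A and change by -0.17 and 0.095 in MDA-MB-231.

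The test of the difference between the lines' responses called 30 of the 42 members, against 45.8% of all genes. For 28 the change was higher, that is less negative or positive, in MDA-MB-231, and for 2 it was lower, against 22.3% and 23.6% of all genes called in these directions. The median difference was 0.3025 over the members and 0.005 over all genes. Counting both lines, 27 members fell in both, 10 fell in MCF10A and did not pass the test in MDA-MB-231, 2 fell in MCF10A and rose in MDA-MB-231, PSME1 fell in MDA-MB-231 alone, and PSMA8 and PSMG2 passed in neither. The 12 members whose difference did not pass were PSMB1, PSMB4, PSMB6, PSMB9, PSMC3, PSMC6, PSMD1, PSMD10, PSMF1, PSMG1, PSMG2 and PSMA8. They included PSMC3, PSMD1 and PSMG1, whose changes were -0.92 or lower in both lines. Under other settings 7 of the 12 passed. PSMC6 did in 6 settings (adjusted p = 0.0105 to 0.0406 in limma's fits), and PSMB1 without dim genes, with centred arrays and with the other variance model (0.0308, 0.0262 and 0.0117). PSMC3 passed with the actin difference as a covariate, at 0.28 (0.00276), PSMB4 with the mean of all probe sets, at 0.1925 (0.00187), and PSMF1 without probe sets shared between transcripts, at 0.4325 (0.00201). PSMB9 passed without MCF10A 2DG replicate C, at 0.24 (0.0369), and PSMD10 without MDA-MB-231 vehicle replicate D, at -0.235 (0.0171). Conversely, with the mean of all probe sets the differences of PSMA2, PSMA3, PSMA5, PSMD4 and PSMD5 did not pass (0.219, 0.992, 0.139, 0.0605 and 0.141). Over the 42 members, the changes in the lines had a Pearson r of 0.638 and a Spearman rho of 0.413, and without PSME3 0.46 and 0.369, as a description across genes that share arrays.

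On vehicle more members were higher in MDA-MB-231 than in MCF10A. In all 37 of 42 were called, against 56% of all genes, with 25 higher in MDA-MB-231 and 12 lower, against 29.2% and 26.8% of all genes, with a median difference of 0.15 over the members and 0 over all genes. PSMB9 showed the largest difference, higher in MDA-MB-231 by 1.10 ± 0.068 (adjusted p = 3.35e-10 in limma's fit), while PSMB8 was lower there by a difference of -0.265 ± 0.045 (6.71e-05) and PSMB10 differed by -0.085 ± 0.045 (0.123), so the 3 immunoproteasome genes did not share a direction. PSMD10 was higher in MDA-MB-231 by 0.81 ± 0.06 (3.58e-09) and PSMD2 by 0.685 ± 0.035 (3.56e-11). All 5 ATPases and all 3 base chaperones were higher in MDA-MB-231 on the probe sets used. For PSMC2 the call was lost without MCF10A vehicle replicate B (adjusted p = 0.0755), and its difference was -0.27 with the mean of all probe sets. For PSMD9 the call was lost with that mean (0.075, adjusted p = 0.279), and its other probe set was lower in MDA-MB-231 (-0.3275, adjusted p = 0.00631). On the other side, PSMG4 differed by -0.605 ± 0.039 (6.47e-10) and PSME4 by -0.30 ± 0.036 (1.24e-06). Ordered by group means, the highest of the 4 groups was MDA-MB-231 on vehicle for 24 members and MCF10A on vehicle for 13, and the lowest was MCF10A with 2DG for 32 and MDA-MB-231 with 2DG for 8.

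Several genes gave another answer on their other probe sets, which read other stretches of the transcript or other transcripts. Of the members, 22 had more than 1 probe set, and in a fit over the 41097 probe sets with 1 gene these gave 39 further series of values. Of the 39, 23 fell and 3 rose in MDA-MB-231, and 28 fell and 3 rose in MCF10A. Of all probe sets in that fit, 24% were called lower and 24.5% higher in MDA-MB-231, and 24.4% lower and 26.6% higher in MCF10A. The second probe set of PSMA5, far dimmer at a mean of 6.07 on the log2 scale, changed by -2.26 in MDA-MB-231 and -1.87 in MCF10A, beside -0.0575 and -0.765 on the brightest. The second of PSMD12 (mean 10.4) changed by -1.69 in MDA-MB-231 and -1.42 in MCF10A, beside -0.0525 and -0.89. For both genes the brightest probe set did not pass the test in MDA-MB-231 and the second fell there by more than in MCF10A (differences of -0.39 and -0.275, adjusted p = 0.0424 and 0.0012 in limma's fit over probe sets). The other 2 of PSMC2 changed by -1.595 and -1.59 in MDA-MB-231 and by -2.005 and -2.28 in MCF10A, and that of PSMD11 (mean 8.71) by -0.865 and -2.76. In MDA-MB-231, 10 of the 39 lay at least 0.5 below the brightest probe set of their gene (8 members) and in MCF10A 8 did (7 members). At least 0.5 above it lay 4 in MDA-MB-231, of PSMD4, PSMD6, PSME3 and PSME4, and 5 in MCF10A, of PSMA3, PSMD4, PSMD6, PSME3 and PSMG4.

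The 4 probe sets of PSME3 all fell in both lines: the other 3 changed by -1.37, -0.48 and -0.90 in MDA-MB-231 and by -2.19, -1.29 and -2.08 in MCF10A. The second probe set of PSMD1 gave -1.05 in MDA-MB-231 and -1.03 in MCF10A. PSME4 had no single direction in MDA-MB-231, since the second (mean 8.97) changed by -1.105 and the third (mean 8.72) by 0.98 there, beside 0.23 for the brightest. All 3 probe sets of PSME4 fell in MCF10A. Called changes opposite to that of the brightest probe set were found for 1 further set each of PSMA3, PSMD6 and PSME4 in MDA-MB-231 and of PSMA3, PSMD6 and PSMG4 in MCF10A. Those of PSMA3, PSMD6 and PSMG4 were dim, with means of 5.91 and 5.27 for PSMA3, 3.80 for PSMD6 and 4.805 for PSMG4. The set of PSMG4 changed by 1.22 in MCF10A. With the mean of all probe sets of a gene in place of the brightest, PSMA3, PSMB7 and PSMD6 changed by 0.0325, 0.0838 and 0.149 in MDA-MB-231, and PSMA3 and PSMG4 by 0.0342 and 0.173 in MCF10A, opposite to the values above. On the same mean PSMA5, PSMD11 and PSMD12 fell in MDA-MB-231, with changes of -1.16, -0.449 and -0.8725 (adjusted p = 2.53e-11, 5.6e-09 and 1.29e-12 in limma's fit), where the brightest probe set was not called.

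**Figure D4:**
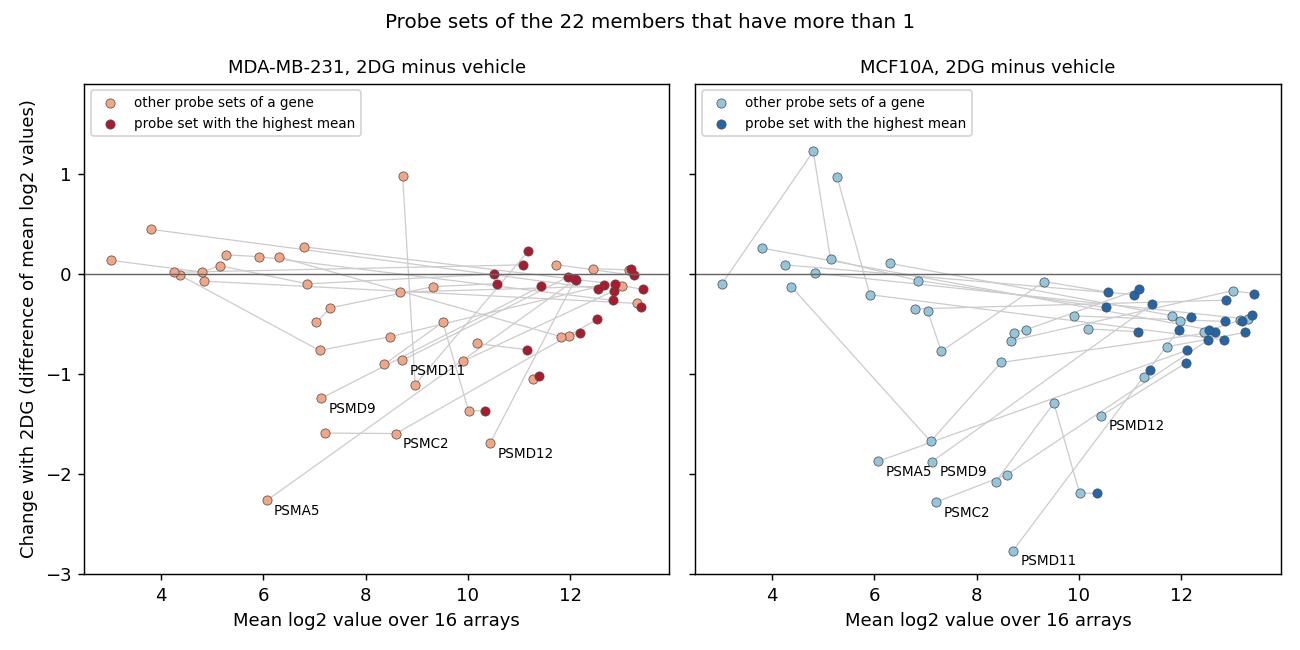
Change with 2DG of the probe sets of the 22 members that have more than 1 (vertical axes, difference of mean log2 values). Horizontal axes give their mean log2 value over 16 arrays, with MDA-MB-231 on the left and MCF10A on the right. Dark points are the probe set used for each gene and light points the other 39, several of which lie far below the dark points and some above.

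The RefSeq promoter table held 36 of the members among 27305 genes, and the 250 bases before each start site were searched on both strands. The core of the antioxidant response element, TGACNNNGC, through which NFE2L1 and NFE2L2 act, was found for 11 members (30.6%) and for 13.2% of all genes. The CCAAT box, the site of the NF-Y factors, was found for 16 members (44.4%) and 37.0% of all genes. An interferon-stimulated response element (GAAA, a pair of free bases, GAAA) was found for 4 members (11.1%, against 3.71% of all genes). A gamma-activated site, TTCNNNGAA, was found for 7 (19.4%, against 8.09%), and a nuclear respiratory factor site (GCGCA, a free base, GCGC) for 3 (8.33%, against 6.2%). A match is a run of letters and no site of binding. The response element matches are shown with 10 bases on either side for 4 members at different places in the range of responses, in capitals, from PSME4 at chr2:53971009-53971037 (plus strand), PSMB9 at chr6:32854034-32854062 (minus strand), PSMD12 at chr17:67366724-67366752 (minus strand) and PSMG1 at chr21:39183616-39183644 (minus strand), each as read on the strand that holds the match.
PSME4: gctctgctggTGACGCTGCagccgccggg
PSMB9: ccgagacaagTGACGAGGCagccccgccc
PSMD12: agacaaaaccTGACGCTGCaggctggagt
PSMG1: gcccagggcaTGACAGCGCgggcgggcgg
The 11 members with TGACNNNGC had a median change of -0.1125 in MDA-MB-231 and -0.5275 in MCF10A, and the 25 without it -0.155 and -0.56. For the CCAAT box, the medians with and without it were -0.2525 and -0.0925 in MDA-MB-231 and -0.66 and -0.46 in MCF10A. These are descriptions with no test.

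Most of the measured regulators of proteasome genes were higher with 2DG. The list mixes factors that raise genes, such as NFE2L1, with others that repress, such as BACH1. Counts over it thus give no direction of effect on the proteasome genes. Of 13 measured regulators of 15 listed, 9 rose and 3 fell in MDA-MB-231, and 10 rose and 3 fell in MCF10A, with medians of 0.30 and 0.5875. These are 69.2% higher and 23.1% lower in MDA-MB-231 and 76.9% and 23.1% in MCF10A, beside 25.5% and 25.4% of all genes in MDA-MB-231 and 29% and 25.2% in MCF10A. NFE2L1 rose by 0.64 ± 0.043 (SE) in MDA-MB-231 (adjusted p = 1.72e-09 in limma's fit) and by 1.35 ± 0.043 in MCF10A (1e-13), and NFE2L2, its relative in the response to oxidants, rose by 0.71 and 0.81 in the same order. NFE2L3, the third of the family, fell by 1.315 in MDA-MB-231 and fell by 1.80 in MCF10A. BACH1, which represses from the same element, rose by 2.10 and 1.30, and MAFG, a small partner of these factors, rose by 1.13 and 1.02. MAFF, a relative of MAFG, rose by 0.93 and 0.73, and VCP, which extracts NFE2L1 from the membrane, rose by 0.1075 in MDA-MB-231 and fell by 0.67 in MCF10A. NGLY1, the enzyme that removes N-glycans from NFE2L1, rose by 0.30 and 0.59. NFYB, a subunit of the factor that binds the CCAAT box, fell by 1.525 in MDA-MB-231 and rose by 0.145 in MCF10A, and NFYA changed by -0.105 and -0.575, both called. Protein levels and processing of these factors were not measured.

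Of 21 measured partners of the proteasome with other names, of 22 listed, 7 rose and 8 fell in MDA-MB-231, and 6 rose and 11 fell in MCF10A, with medians of -0.005 and -0.1375. In MDA-MB-231 these shares, 33.3% higher and 38.1% lower, were near those of all genes (25.5% and 25.4%). In MCF10A they were 28.6% higher and 52.4% lower, against 29% and 25.2% of all genes. UCHL5, a deubiquitinating enzyme of the regulatory particle, fell by 0.68 ± 0.036 in MDA-MB-231 (adjusted p = 8.46e-11 in limma's fit) and fell by 1.71 ± 0.036 in MCF10A (7.06e-16). Its docking protein ADRM1 changed by -0.11 in MDA-MB-231 (adjusted p = 0.115) and fell by 0.60 in MCF10A (6.54e-08). POMP, which matures the core, changed by -0.005 in MDA-MB-231 (0.926) and fell by 0.59 in MCF10A (2.24e-10), and SEM1, the smallest lid subunit, changed by 0.0325 and 0.005 with no call in either line. IPO9, which carries proteasomes into the nucleus, fell by 0.595 in MDA-MB-231 and fell by 0.875 in MCF10A, while AKIRIN2, with which it acts, rose by 0.22 and 0.38. ECPAS, a scaffold that binds the proteasome, rose by 0.155 and 0.65. UBLCP1, a phosphatase of the proteasome, changed by -0.355 and -0.63, both called. Of the ubiquilins, which shuttle ubiquitinated proteins, UBQLN1 changed by -0.62 in MDA-MB-231 and -0.345 in MCF10A, both called, and UBQLN4 rose by 0.59 in MDA-MB-231 and changed by 0.0825 in MCF10A (adjusted p = 0.195). ZFAND2A, which is induced by arsenite, rose by 0.435 and 0.40, and its relative ZFAND2B by 0.155 and 0.385.

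Of the ubiquitin genes, 6 of 13 listed were measured: 4 rose and 2 fell in MDA-MB-231, and 1 rose and 3 fell in MCF10A, with medians of 0.22 and -0.12. Of all genes, 25.5% rose and 25.4% fell in MDA-MB-231, and 29% rose and 25.2% fell in MCF10A. UBB, which encodes ubiquitin, fell by 0.21 in MDA-MB-231 and fell by 0.43 in MCF10A, and UBE2N, a conjugating enzyme, changed by -0.28 and -1.05, both called. UBE2R2, another conjugating enzyme, rose by 1.02 and 1.005. UBE2K, a further conjugating enzyme, rose by 0.84 in MDA-MB-231 and changed by 0.0175 in MCF10A (adjusted p = 0.698). Of the activating enzymes, UBA1 rose by 0.255 in MDA-MB-231 and changed by 0.14 in MCF10A (adjusted p = 0.0558), and UBA6 rose by 0.19 in MDA-MB-231 and fell by 0.26 in MCF10A.

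Most of the measured genes of class I antigen presentation rose. Of 13 measured genes of class I antigen processing, of 15 listed, 10 rose and 2 fell in MDA-MB-231, and 7 rose and 3 fell in MCF10A, with medians of 0.465 and 0.38. That is 76.9% higher and 15.4% lower in MDA-MB-231, against 25.5% and 25.4% of all genes, and 53.8% and 23.1% in MCF10A, against 29% and 25.2%. TAP1, a peptide transporter whose gene shares a promoter region with PSMB9 in the human genome, rose by 0.92 ± 0.04 in MDA-MB-231 (adjusted p = 7.7e-12 in limma's fit) and by 0.50 ± 0.04 in MCF10A (1.25e-08), where PSMB9 fell in both lines. HLA-E rose by 0.86 and 0.79, TAPBP, which loads peptides, by 0.78 in each line, and IRF9, a factor of the interferon response, by 1.18 in MDA-MB-231 and 1.37 in MCF10A. TAP2 fell by 0.35 in MDA-MB-231 and fell by 0.57 in MCF10A, and NLRC5, an activator of class I genes, changed by -0.235 and -0.53, both called. ERAP2, which trims peptides, rose by 0.61 in MDA-MB-231 and fell by 0.25 in MCF10A.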

How the data were processed

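RNA of 16 cultures was measured on 1 Affymetrix array each, after labelling with biotin from the 3' end, per the labels' protocols. The deposited values are log2 probe set summaries that the authors made with RMA (robust multi-array average), per the submitters' processing notes. The version, and joint or separate normalization of the arrays, are not given in the sources used here. In all 54675 probe sets were deposited, 62 of them controls. Genes were named from GEO's platform annotation: 41097 probe sets had 1 gene and 1801 had several and were left out. There are no detection calls, so changes of dim probe sets may be understated, and the number of arrays limits the precision.

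For the 19775 genes limma 3.58.1 (R 4.3.3) was used with lmFit and eBayes (4 group means, 12 residual degrees of freedom), with two-sided tests and Benjamini-Hochberg adjustment over all genes, called at an adjusted p under 0.05. The procedure was tested on simulated data. The members, roles and gene lists were chosen with earlier results of these data known. Values in every array are given for the catalytic pairs, the activators and inhibitor, the 4 largest called changes each way in each line, and the 3 largest each way in the difference of responses and between the lines. Of each further list the 3 largest called changes each way are named, plus NFE2L1, NFE2L2, POMP, ADRM1 and SEM1; PSMA5, PSMG2, PSMD3, PSMD5, NGLY1 and others given with values outside this rule were chosen after their values were seen. Promoters are RefSeq's on GRCh38.p14. The alternatives were the mean of all probe sets, no probe sets shared between transcripts, no dim genes, centred arrays, another variance model, a replicate block, the actin difference as a covariate and leaving out each array.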

Additional observations from a re-analysis of the deposited data

Results flagged for a closer look

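Among the groups of 4 arrays of 21 members, those given array by array and PSMD3, which was added after its values were seen, 6 of 84 had 1 array that stood apart from the other 3, and chance alone would pick out about 1 in 20 groups. PSMB7 read 13.24 in MDA-MB-231 2DG replicate D, against 13.13 in the nearest array of the group, and PSME3 read 9.83 in the same array, against 9.74. PSMB9 read 8.16 in MCF10A vehicle replicate D, against 8.06. PSME4 read 11.09 in MCF10A 2DG replicate B, against 11.18. PSMD3 read 11.51 in MDA-MB-231 vehicle replicate B, against 11.11. PSMF1 read 10.50 in MCF10A vehicle replicate A, against 10.53 in each of the others.

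The response to 2DG differed between the lines, by the test of the difference itself (MDA-MB-231 minus MCF10A, limma's interaction contrast), for 30 of the 42 proteasome genes. In the alpha ring the differences of log2 changes were 0.52 for PSMA1, 0.3075 for PSMA2, 0.395 for PSMA3, 0.48 for PSMA4, 0.71 for PSMA5 and 0.57 for PSMA7. In the beta ring they were 0.465 for PSMB2, 0.4475 for PSMB3, 0.195 for PSMB5 and 0.16 for PSMB7. Of the immunoproteasome, PSMB8 differed by 0.2525 and PSMB10 by 0.80. In the base they were 0.165 for PSMC1, 0.205 for PSMC2, 0.36 for PSMC4, 1.13 for PSMD2 and -0.16 for PSMD4, and in the lid 0.515 for PSMD3, 0.41 for PSMD6, 0.3375 for PSMD8, 0.525 for PSMD11, 0.835 for PSMD12 and 0.69 for PSMD14. Of the activators, PSME1 differed by -0.29, PSME3 by 0.825 and PSME4 by 0.38. Of the chaperones, PSMD5 differed by 0.2975, PSMD9 by 0.1775, PSMG3 by 0.88 and PSMG4 by 0.3325. A positive value means a less negative or more positive change in MDA-MB-231. In the fit over probe sets, another probe set each of PSMA2, PSMA3, PSMA5, PSMD12, PSME4 and PSMG4 gave a called difference of the opposite sign.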

How the results depend on the processing

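The counts of members called, in all and lower, stayed within 1.5 times of the values given in the 4 comparisons under every alternative run; the count called higher was small and in the comparisons of 2DG with vehicle did not. In MDA-MB-231 it was 2, became 1 without probe sets shared between transcripts, 1 with the replicate block and 1 with the actin difference as a covariate, and ran from 1 to 4 as each array was left out, with 4 without vehicle replicate B. In MCF10A it was 0 and became 1 with the mean of all probe sets. Whether the replicate letters pair the samples was not tested. The correlation of deviations was -0.0992 to 0.0877 for the 24 same-letter pairs and -0.117 to 0.102 for the 72 different-letter pairs. Between vehicle and 2DG in MCF10A, same-letter pairs gave 0.0852, 0.0401, 0.0706 and 0.0877 for A to D, and different-letter pairs -0.117 to 0.0686. In MDA-MB-231 the same-letter pairs gave 0.00506, 0.0105, 0.0194 and -0.0992, and the different-letter pairs -0.0699 to 0.089. With the replicate block 29 members were called in MDA-MB-231, 39 in MCF10A, 30 in the difference of responses and 36 between the lines. Single genes reversed mainly with the probe set. With the mean of all probe sets, PSMA3 changed by 0.0325, PSMB7 by 0.0838 and PSMD6 by 0.149 in MDA-MB-231, and PSMA3 by 0.0342 and PSMG4 by 0.173 in MCF10A. The differences of responses became -0.0725 for PSMA2, -0.00167 for PSMA3 and -0.147 for PSMG4, and those between the lines on vehicle -0.34 for PSMA5, -0.27 for PSMC2 and -0.0588 for PSMD12. Without shared probe sets, which left 32 members, PSMD4 changed by 0.17 in MDA-MB-231 and 0.105 in MCF10A and PSMB1 by 0.0075 in MCF10A. The differences of responses became -0.4525 for PSMA2, 0.065 for PSMD4 and -0.0325 for PSMG4, and those between the lines -0.40 for PSMC2, -0.0875 for PSMD4 and -0.395 for PSMF1. As each array was left out, the change of PSMD3 in MDA-MB-231 ran from -0.0575 to 0.0958, its highest value without vehicle replicate B. Other probe sets of these genes are read by construction in the first of these settings, and the cause was not tested further. Centring the arrays moved the median of all genes by 0 in MDA-MB-231 and 0.0375 in MCF10A. Calls near the threshold are those of PSMD2, PSMB5, PSMB7 and PSMF1 in MDA-MB-231, and of PSMC2, PSMG1 and PSMG3 between the lines on vehicle, which were lost when some single arrays were left out.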
